A study of Mus musculus with 12 samples.

Results

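The genes described here encode the non-collagenous part of the extracellular matrix: adhesive and matricellular glycoproteins, elastic fibre proteins, basement membrane proteins, proteoglycans, the hyaluronan synthases with their receptor, and the cell-surface syndecans and glypicans. They were taken from a list of 53 gene symbols drawn up by function. It was chosen with earlier results of these data known, so counts over it are descriptions. All 53 were found among the 34866 genes of the expression table, each under 1 Ensembl identifier. Of these, 50 had a mean of at least 1 TPM, a length-scaled share of the library's transcripts, over the 12 libraries and were tested within the 12504 genes that reached it. The other 3 were listed near 0: the tenascin gene Tnxb ranged from 0.0246 to 0.181 TPM, the small proteoglycan gene Lum from 0 to 0.489 TPM, and its relative Prelp from 0.0619 to 0.734 TPM. Has1, a hyaluronan synthase gene, passed the filter through the female libraries, since 5 of its 6 male values were under 1 TPM.

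Fibroblasts build and remodel this matrix in connective tissue. Fibronectin and the matricellular proteins tie cells to the matrix and tune adhesion, fibrillin microfibrils form the scaffold on which tropoelastin is deposited, and laminins joined by nidogens and perlecan make up the basement membrane. Proteoglycans carry glycosaminoglycan chains that hold water, space collagen fibrils and bind growth factors, while hyaluronan is a free glycosaminoglycan spun out by synthases at the plasma membrane.

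Polyadenylated RNA was sequenced from mouse embryonic fibroblasts (MEFs) that differed in sex and in Sirt3, the gene of a mitochondrial deacetylase. There were 4 groups of 3 libraries, WT and KO cells of each sex. WT cells came from 129S1/SvImJ embryos and KO cells from embryos of a Sirt-3 KO mouse stock. All were isolated at embryonic day 13, immortalized with SV40 T antigen, and collected at passage 6, 48 h after seeding. The libraries of a group were described as triplicate wells, and how many lines or embryos stood behind each group was not given in the sources used here. Sex and genotype were crossed, but differences between groups therefore cannot be told apart from differences between lines. Genotype also cannot be told apart from the mouse stock of origin. The p-values measure only the spread between cultures, which may be technical.

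The labels were first set against the data. Sirt3 was at 6.59, 7.17 and 9.07 TPM in WT males, 8.88, 10.9 and 11 in KO males, 7.40, 7.60 and 8.69 in WT females and 7.57, 9.06 and 8.19 in KO females, so it was not lower under the KO label. Its log2 fold change was 0.39 in males (SE 0.14, limma adjusted p = 0.0981) and 0.059 in females (SE 0.11, adjusted p = 0.772). In what follows, KO therefore names the label of a library. The authors also show an immunoblot of the Sirt3 protein, which RNA levels do not measure. The Y-linked gene Ddx3y had a mean of 34.7 and 33.5 TPM in male WT and KO and of 0.121 and 0.119 TPM in female WT and KO. All 10 fibroblast markers were expressed, and their summed level ranged over 8465 to 9436 TPM in male WT, 11060 to 11610 in male KO, 6887 to 7049 in female WT and 8771 to 9079 in female KO. Tested singly (limma adjusted p under 0.05), 5 were higher and 2 lower in male KO, with log2 fold changes of -0.60 to 1.19. In female KO, 8 were higher and 0 lower. Of all tested genes, 21.6% passed in males and 11.5% in females. In bulk RNA, fewer cells of a type and less RNA per cell cannot be told apart. TPM is scaled to transcript length and to a fixed total, so levels can be set side by side between genes. The authors state a target depth, but the depth each library reached is unknown and no counting error can be given.

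Most of these matrix genes differed between KO and WT MEFs, and more of them rose than fell. The counts below describe the list and do not test it as a set. In males, 34 of the 50 tested genes passed the test (limma on log2(TPM + 1), Benjamini-Hochberg adjusted p under 0.05), 25 higher and 9 lower in KO, where 21.6% of all tested genes passed, 10.7% higher and 10.9% lower. In females 29 passed, 24 higher and 5 lower, against 11.5% of all tested genes, 5.63% higher and 5.84% lower. The median log2 fold change of the 50 genes was 0.24 in both sexes, against -0.015 over all tested genes in males and -0.023 in females. Their median absolute log2 fold change was 0.46 in males and 0.34 in females, against 0.17 and 0.13 over all tested genes. The TPM ranges of KO and WT did not overlap for 39 of the 50 genes in either sex, where 40.0% of all tested genes did not overlap in males and 33.6% in females. Summed over the 53 genes, the matrix transcripts took 0.835% ± 0.0317 of each library in male WT, 1.1% ± 0.0416 in male KO, 0.936% ± 0.0129 in female WT and 1.1% ± 0.00819 in female KO (mean ± SD, n = 3).

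**Figure D1:**
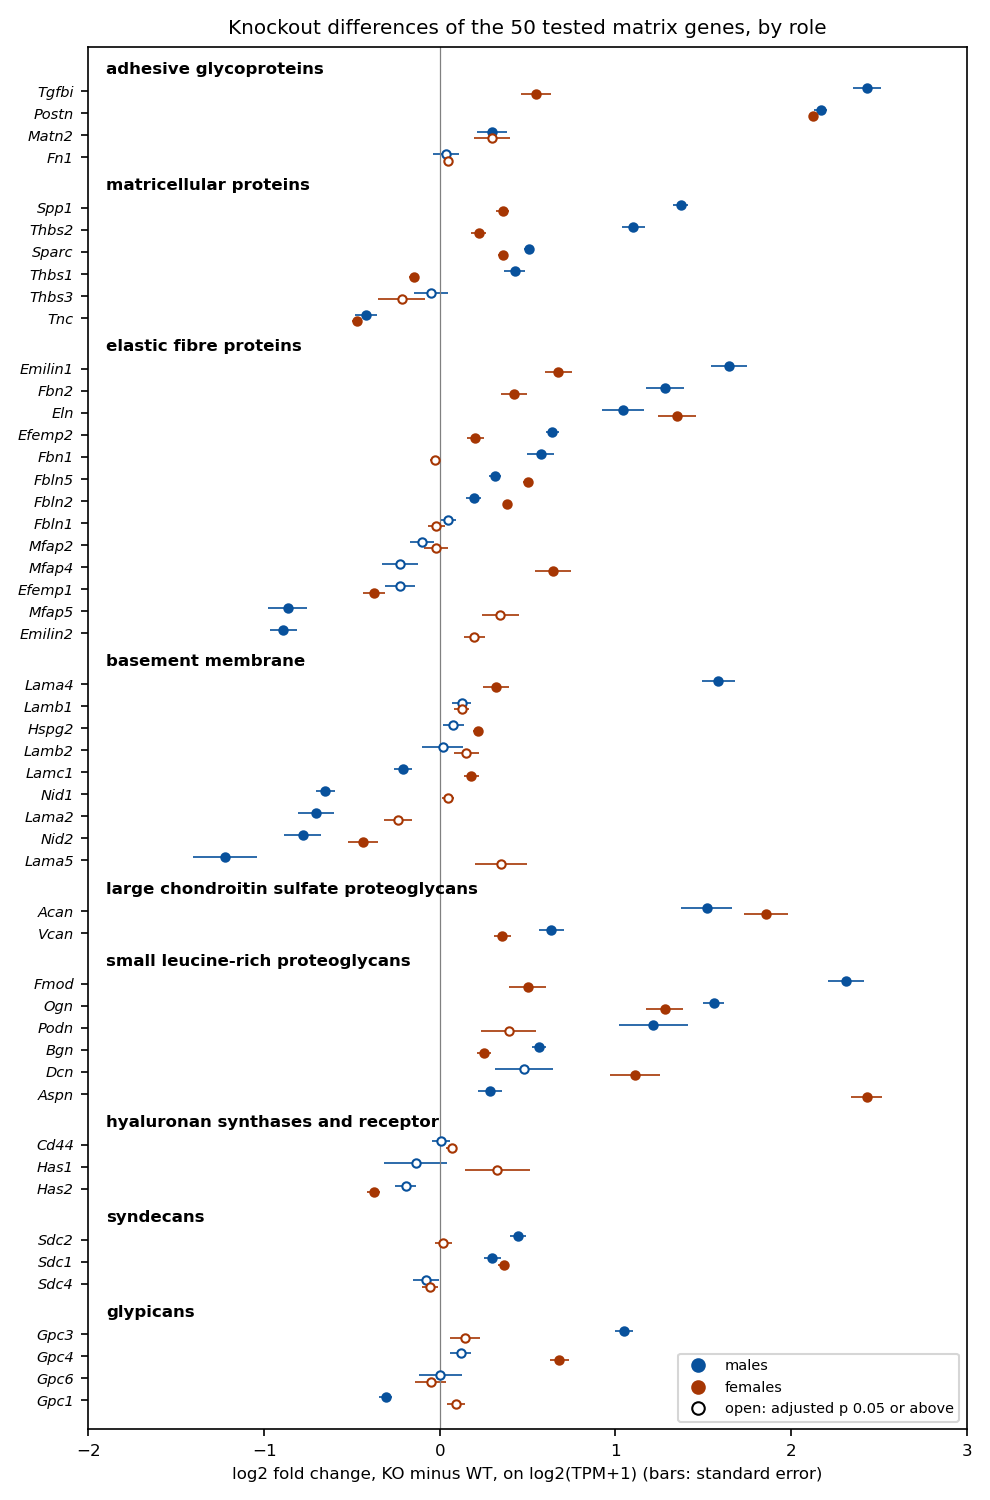
Log2 fold change of KO over WT on the log2(TPM + 1) scale (x axis) for each of the 50 tested genes, grouped by role, in males (blue) and females (red-brown). Bars are standard errors and open circles had an adjusted p of 0.05 or above. Tgfbi, Fmod and Postn lie farthest right in males (2.43, 2.31 and 2.17) and Aspn and Postn in females (2.43 and 2.13), while Lama5 lies farthest left (-1.22 in males).

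The male and female comparisons share no library. 23 genes passed in both, which was 67.6% of the male and 79.3% of the female list. Over all tested genes 730 passed in both, 27.0% of the male and 50.9% of the female list. Of the 23 matrix genes, 19 were higher in KO in both sexes. They were Acan, Aspn, Bgn, Efemp2, Eln, Emilin1, Fbln2, Fbln5, Fbn2, Fmod, Lama4, Ogn, Postn, Sdc1, Sparc, Spp1, Tgfbi, Thbs2 and Vcan. Nid2 and Tnc were lower in both. Thbs1 rose in male and fell in female KO, and Lamc1 did the reverse. Of the 730 genes, 304 were higher and 289 lower in both sexes. A further 81 rose in male and fell in female KO, and 56 did the reverse. Of the 50 matrix genes, 11 passed in males alone and 6 in females alone, against 1977 and 704 of the 12504 tested genes. Passing in neither were 9093 of all tested genes and 10 matrix genes: Cd44, Fbln1, Fn1, Gpc6, Has1, Lamb1, Lamb2, Mfap2, Sdc4 and Thbs3. Each call was recomputed with each library left out in turn, with other filters on low values (none, or a mean of 5 TPM), with a pseudocount of 0.1 TPM, with no trend of the variance on the level, with libraries rescaled by median-of-ratios factors and with all 12 libraries in one fit. Fits with the replicate number as a block are not among these alternatives. A call is described as lost where its adjusted p then reached 0.05.

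Acan, Eln, Ogn and Postn were the genes that changed by a log2 fold change of at least 1 in both sexes. They were picked by this cutoff, and shared regulation was not tested. The 150 bases upstream of their RefSeq transcription start are shown for the 3 with an entry in the promoter table used (Eln had none). The sequences are from GRCm38.p6 and run 5′ to 3′ along the gene. Acan is taken from chr7:79053076-79053225 on the + strand, with a match to the TEAD factor motif GGAATG, here on the opposite strand as CATTCC, in capitals 12 bases before the start. Ogn is taken from chr13:49607865-49608014 on the + strand, with GGAATG in capitals 86 bases before the start. Postn is taken from chr3:54360957-54361106 on the + strand, with the TATA box letters TATAAA in capitals 26 bases before the start.
Acan: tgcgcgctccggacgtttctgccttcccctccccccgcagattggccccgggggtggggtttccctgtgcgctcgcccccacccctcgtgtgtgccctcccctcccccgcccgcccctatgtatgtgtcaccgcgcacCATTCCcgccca
Ogn: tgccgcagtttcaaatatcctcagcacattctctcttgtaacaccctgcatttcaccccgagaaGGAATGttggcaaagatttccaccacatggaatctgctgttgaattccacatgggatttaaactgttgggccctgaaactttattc
Postn: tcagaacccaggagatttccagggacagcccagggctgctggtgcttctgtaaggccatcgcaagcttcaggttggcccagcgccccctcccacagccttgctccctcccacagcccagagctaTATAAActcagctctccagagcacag

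Promoter windows of 300 bases, 250 before and 50 after each start, were found for 37 of the 53 genes (47 windows) and searched on both strands. GGAATG occurred in 12.8% of them against 14.7% of all 32851 windows, and TATAAA, a motif added after the data were seen, in 14.9% against 13.6%. The AP-1 motif TGANTCA occurred in 4.26% against 7.81% and the core of the hypoxia element, ACGTG, in 12.8% against 19.6%. The shares were thus close to or below those of all windows, and a match is a description of letters, not a mapped site.

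Among the adhesive glycoproteins, Postn and Tgfbi rose strongly while fibronectin itself did not pass the test. Postn, which encodes periostin, a matrix protein of fibrosis and of the periosteum (ENSMUSG00000027750.16, chr3:54361109-54391037, + strand), was measured at 123, 122 and 122 TPM in WT males, 536, 575 and 554 in KO males, 144, 146 and 146 in WT females and 628, 634 and 656 in KO females. Every KO library stood far above every WT library of its sex, and the differences were close in size in males (log2 fold change 2.17, SE 0.037, adjusted p = 1.01e-06) and females (log2 fold change 2.13, SE 0.028, adjusted p = 4.4e-07), with an interaction (male minus female log2 fold change) of 0.039 (SE 0.043, adjusted p = 0.647). Tgfbi, a TGF-beta-induced protein that binds integrins and collagen (ENSMUSG00000035493.10, chr13:56609523-56639562, + strand), was at 29.1, 33.8 and 28.4 TPM in WT males, 159, 179 and 167 in KO males, 16.8, 20.1 and 18.6 in WT females and 26.3, 26.7 and 29.5 in KO females. Its KO and WT libraries did not overlap in either sex, with male KO far above every other group (males log2 fold change 2.43, SE 0.079, adjusted p = 7.67e-06, females log2 fold change 0.55, SE 0.085, adjusted p = 0.0104). Fn1, fibronectin, the main adhesive protein of fibroblast matrix and among the most abundant transcripts of the list, was at 1168, 1346 and 1282 TPM in WT males, 1204, 1411 and 1276 in KO males, 1417, 1438 and 1441 in WT females and 1488, 1448 and 1497 in KO females. Its KO and WT libraries overlapped in males, and in females they stood apart by a small margin that did not pass (males log2 fold change 0.035, SE 0.072, adjusted p = 0.772, females log2 fold change 0.045, SE 0.023, adjusted p = 0.256). Matn2, the filament-forming matrilin-2, rose in male KO by 0.30 (log2, SE 0.083, adjusted p = 0.0446), a call lost without any 1 of the 6 libraries. Over 12 alternatives the log2 fold change was 0.24 to 0.34 and the adjusted p at most 0.129. Its female difference of the same size (0.30, SE 0.10) had an adjusted p of 0.123.

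Matricellular genes, whose products modulate cell-matrix contact rather than build fibres, showed gains for Spp1, Thbs2 and Sparc and a loss for Tnc. Of the 6 tested, 4 rose and 1 fell in males, where 21.6% of all tested genes passed. In females 3 rose and 2 fell, where 11.5% of all tested genes passed. Spp1 encodes osteopontin, an integrin-binding phosphoprotein (ENSMUSG00000029304.14, chr5:104435118-104441050, + strand), and was at 151, 142 and 154 TPM in WT males, 379.9, 395 and 387 in KO males, 337, 338 and 324 in WT females and 429, 443 and 410.2 in KO females. The male WT libraries were the low ones: KO exceeded WT in both sexes without overlap, by 1.37 in males (SE 0.042, adjusted p = 7.67e-06) and by 0.36 in females (SE 0.036, adjusted p = 0.00188). Thbs2, an anti-angiogenic thrombospondin (ENSMUSG00000023885.8, chr17:14665500-14694235, - strand), was at 29.4, 33.5 and 32.9 TPM in WT males, 67.9, 72.8 and 68.1 in KO males, 82.2, 82.7 and 83.1 in WT females and 95.5, 92.7 and 102 in KO females. Male WT was again lowest and male KO rose toward the female values (log2 fold change 1.1, SE 0.067, adjusted p = 6.63e-05). The female rise was small (log2 fold change 0.22, SE 0.043, adjusted p = 0.0225) and its call was lost without female WT replicate 1, 2 or 3 or female KO replicate 1 or 3 and with no mean-variance trend. The adjusted p reached 0.0742 over the 12 alternatives, with log2 fold changes of 0.18 to 0.25.

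Sparc, a collagen-binding calcium-binding glycoprotein and the most abundant matricellular transcript, was at 978, 1021 and 1004 TPM in WT males, 1421, 1427 and 1418 in KO males, 779, 824 and 822 in WT females and 1034, 1024 and 1056 in KO females. All KO libraries exceeded all WT libraries of their sex (males log2 fold change 0.51, SE 0.027, adjusted p = 3.84e-05, females log2 fold change 0.36, SE 0.030, adjusted p = 0.000832). Tnc, tenascin-C, a glycoprotein of remodelling tissue that counters adhesion to fibronectin, fell in both sexes. Its male libraries were at 291, 324 and 329 TPM in WT and 226, 251 and 228 in KO, and the female ones at 549.8, 565 and 564 and 412, 397 and 402 (males log2 fold change -0.42, SE 0.063, adjusted p = 0.00417, females log2 fold change -0.47, SE 0.026, adjusted p = 0.000201). Thbs1, a thrombospondin that activates latent TGF-beta, moved in opposite directions, from 448, 480.2 and 476 to 577, 663 and 651 TPM in males (log2 fold change 0.43, SE 0.059, adjusted p = 0.00288) and from 753, 742 and 725 to 675, 650.3 and 681 in females (log2 fold change -0.15, SE 0.028, adjusted p = 0.0218). The female call for Thbs1 was lost without female WT replicate 1 or 2 or female KO replicate 1 or 2, with no filter on low values, with no mean-variance trend and with all 12 libraries in one fit. Across the 12 alternatives, log2 values were -0.16 to -0.12 and the adjusted p rose to 0.114. Thbs3 ranged from 43.6 to 70 TPM, its groups overlapped, and it passed in neither sex.

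**Figure D2:**
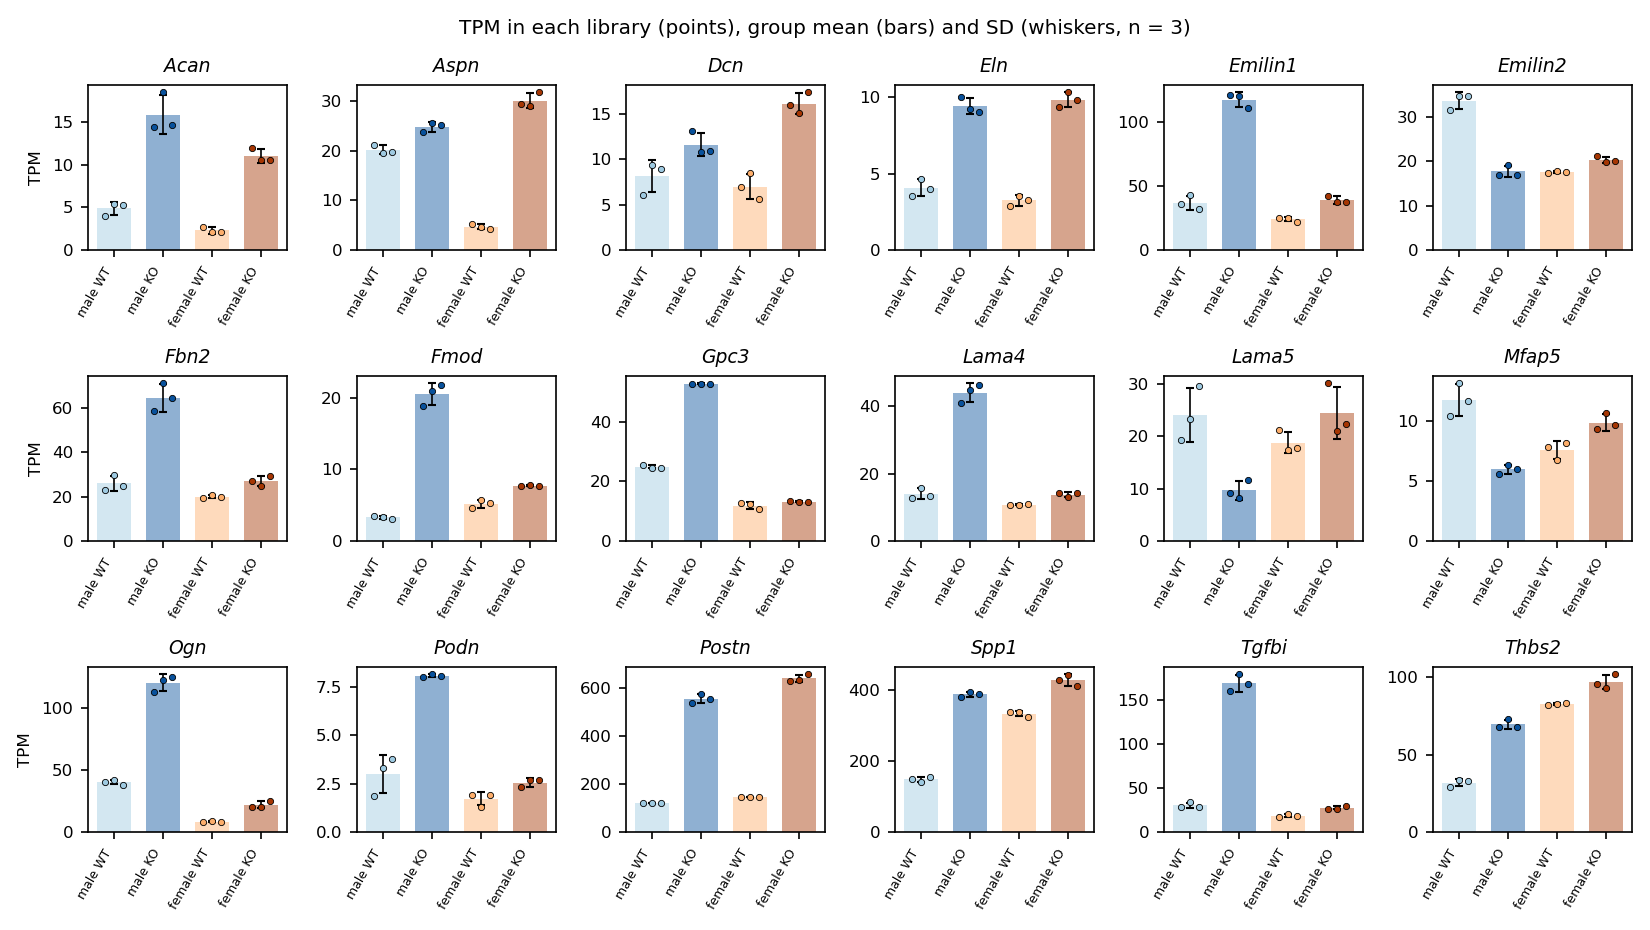
TPM (y axes, each starting at 0) of the 18 genes with a log2 fold change of at least 1 in the male, female or interaction test. Points are libraries, bars group means and whiskers SD (n = 3). Postn stands at 122 to 146 TPM in WT and 536 to 656 in KO of both sexes, Tgfbi and Fmod are high in male KO alone, and Aspn is low in female WT alone.

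Elastic fibre genes mostly rose, with the glycoprotein genes Emilin2 and Mfap5 going the other way in males. Of the 13 tested, 7 rose and 2 fell in males, where 21.6% of all tested genes passed. In females 7 rose and 1 fell, where 11.5% of all tested genes passed. Eln, which encodes tropoelastin, the rubber-like core of the fibre (ENSMUSG00000029675.12, chr5:134702593-134747323, - strand), was at 3.58, 4.67 and 4.0 TPM in WT males, 10.1, 9.24 and 9.03 in KO males, 2.9, 3.57 and 3.32 in WT females and 9.36, 10.3 and 9.85 in KO females. Levels were low, but every KO library was at more than 9 TPM and every WT library under 5 (males log2 fold change 1.04, SE 0.12, adjusted p = 0.00131, females log2 fold change 1.35, SE 0.11, adjusted p = 0.000731). Emilin1, an elastin-associated glycoprotein that restrains TGF-beta processing (ENSMUSG00000029163.9, chr5:30913402-30921277, + strand), was at 35.9, 43.3 and 32.4 TPM in WT males, 121, 121 and 111 in KO males, 25, 25.3 and 22.3 in WT females and 42.7, 37.3 and 37.7 in KO females. KO exceeded WT without overlap, with male KO apart from all other groups (males log2 fold change 1.65, SE 0.10, adjusted p = 7.84e-05, females log2 fold change 0.68, SE 0.078, adjusted p = 0.00325). Fbn2, the fibrillin of embryonic microfibrils, was at 23.2, 29.9 and 24.9 TPM in WT males, 58.4, 70.9 and 64.2 in KO males, 19.5, 20.8 and 19.7 in WT females and 27.2, 25 and 29.4 in KO females. It rose in males (log2 fold change 1.28, SE 0.11, adjusted p = 0.000331) and less in females (log2 fold change 0.42, SE 0.075, adjusted p = 0.0166). This female call was lost without female WT replicate 1 or 3 or female KO replicate 1. Adjusted p values went up to 0.0625 and log2 fold changes from 0.36 to 0.48 over the 12 alternatives.

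Emilin2, a relative of Emilin1 (ENSMUSG00000024053.10, chr17:71252172-71311978, - strand), was at 31.5, 34.8 and 34.6 TPM in WT males, 17, 19.1 and 17 in KO males, 17.4, 17.8 and 17.5 in WT females and 21.1, 19.8 and 20 in KO females. Male WT was the group that stood out, above all libraries of the other 3 groups, so that male KO was lower (log2 fold change -0.89, SE 0.077, adjusted p = 0.000356). In females the libraries did not overlap, yet the small difference did not pass (log2 fold change 0.20, SE 0.060, adjusted p = 0.0873). Mfap5, a microfibril-associated glycoprotein (ENSMUSG00000030116.14, chr6:122505845-122529290, + strand), was at 10.4, 13.1 and 11.6 TPM in WT males, 5.58, 6.29 and 6.0 in KO males, 7.82, 6.71 and 8.11 in WT females and 9.27, 10.6 and 9.62 in KO females. It fell in male KO (log2 fold change -0.87, SE 0.11, adjusted p = 0.00223), while the female KO libraries lay above the WT ones with an adjusted p of 0.0858. Fbln2, fibulin-2, which links fibrillin, elastin and basement membrane and was the most abundant of this role, was at 711, 758 and 780.2 TPM in WT males, 845, 882 and 846 in KO males, 985, 1021 and 997 in WT females and 1290.2, 1308 and 1317 in KO females. Both sexes were higher in KO without overlap (males log2 fold change 0.19, SE 0.042, adjusted p = 0.0172, females log2 fold change 0.38, SE 0.023, adjusted p = 0.000254). However, the male call was lost without male KO replicate 2, with no filter on low values and with no mean-variance trend. Its log2 fold change ran from 0.16 to 0.22 over the 12 alternatives, with adjusted p up to 0.0756.

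Among the remaining elastic fibre genes, Fbln5, a fibulin needed for elastic fibre assembly, rose by 0.31 in males (adjusted p = 0.000825) and 0.50 in females (adjusted p = 0.000196). Efemp2, or fibulin-4, which recruits lysyl oxidase to tropoelastin, rose by 0.64 in males (adjusted p = 4.97e-05) and by 0.20 in females (adjusted p = 0.0403). The latter call was lost without female WT replicate 2 or 3 or female KO replicate 1, 2 or 3, with no filter on low values and with no mean-variance trend. Over 12 alternatives the log2 fold change was 0.17 to 0.24 and the adjusted p at most 0.116. Fbn1, the main fibrillin, rose in male KO alone, from 139, 165 and 157 TPM to 216, 247 and 223 (log2 fold change 0.57, SE 0.076, adjusted p = 0.00246), against 201, 204 and 197 and 198, 191 and 203 in females. Mfap4, a microfibril-associated fibrinogen-related protein, rose in female KO alone, from 14, 14 and 17.1 to 26.2, 22.9 and 22.8 TPM (log2 fold change 0.64, SE 0.10, adjusted p = 0.0108). Efemp1, fibulin-3, fell in females (log2 fold change -0.37, SE 0.061, adjusted p = 0.0123), with -0.23 and an adjusted p of 0.112 in males. Fbln1 and Mfap2 passed in neither sex, with log2 fold changes between -0.10 and 0.047.

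The basement membrane genes were the role in which more genes fell than rose in males: 5 of 9 fell and 1 rose. In females 3 rose and 1 fell. Over all tested genes, 10.7% rose and 10.9% fell in males, and 5.63% rose and 5.84% fell in females. The calls of Lamc1 in males and of Lama4, Lamc1 and Nid2 in females were lost under some alternatives. The laminin alpha chains, which carry the cell-binding domains, moved apart from each other. Lama4, the alpha chain of vascular and mesenchymal laminins (ENSMUSG00000019846.11, chr10:38965515-39110188, + strand), was at 12.9, 15.9 and 13.3 TPM in WT males, 41, 44.8 and 46.4 in KO males, 10.9, 10.8 and 10.9 in WT females and 14.2, 13 and 14.3 in KO females. The male KO libraries stood far above all others (log2 fold change 1.59, SE 0.095, adjusted p = 6.33e-05). The female rise in Lama4 was small (log2 fold change 0.32, SE 0.074, adjusted p = 0.0391) and its call was lost without any 1 of the 6 libraries. The adjusted p reached 0.112 over the 12 alternatives, with log2 fold changes of 0.30 to 0.36. Lama5, the alpha chain of most epithelial basement membranes (ENSMUSG00000015647.9, chr2:180176373-180225859, - strand), was at 19.3, 23.2 and 29.5 TPM in WT males, 9.16, 8.15 and 11.7 in KO males, 21.2, 17.4 and 17.8 in WT females and 30.1, 20.9 and 22.3 in KO females. It was lower in every male KO library than in any other library of the series (log2 fold change -1.22, SE 0.18, adjusted p = 0.00392), and the female KO and WT libraries overlapped (log2 fold change 0.35, SE 0.15, adjusted p = 0.183). Lama2, the alpha chain of muscle laminin, fell in male KO, from 14.8, 16.5 and 13.5 to 8.18, 9.09 and 9.01 TPM (log2 fold change -0.70, SE 0.10, adjusted p = 0.0034). In females it went from 13.4, 13.6 and 13.9 to 12.3, 11.2 and 10.8 TPM without passing (log2 fold change -0.24, SE 0.079, adjusted p = 0.105).

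The nidogens, which link the networks, fell in male KO. Nid1, nidogen-1, which bridges laminin and collagen IV, fell in male KO from 196, 200.4 and 199 to 117, 134 and 126 TPM (log2 fold change -0.65, SE 0.053, adjusted p = 0.000264), while female WT and KO overlapped at 195, 199.6 and 198 and 211, 197 and 206 TPM. Nid2, nidogen-2, fell in both sexes (males log2 fold change -0.78, SE 0.11, adjusted p = 0.00272, females log2 fold change -0.44, SE 0.083, adjusted p = 0.0202). Its female call was lost without female WT replicate 2 or 3 or female KO replicate 2 or 3 and with no filter on low values. Across the 12 alternatives, log2 values were -0.49 to -0.38 and the adjusted p rose to 0.0703. Lamc1, the gamma chain shared by most laminins, fell in males (log2 fold change -0.21, SE 0.051, adjusted p = 0.029) and rose in females (log2 fold change 0.18, SE 0.043, adjusted p = 0.044). Both calls for Lamc1 were weak. The male one was lost without male WT replicate 1, 2 or 3 or male KO replicate 1 or 3, with no filter on low values and with no mean-variance trend. Adjusted p values went up to 0.0858 and log2 fold changes from -0.24 to -0.17 over the 12 alternatives. The female one was lost without female WT replicate 1, 2 or 3 or female KO replicate 1 or 3, with no filter on low values and with no mean-variance trend. Its log2 fold change ran from 0.16 to 0.22 over the 12 alternatives, with adjusted p up to 0.123. Hspg2, perlecan, the heparan sulfate proteoglycan of basement membranes and the most abundant gene of this role, was at 260.5, 302 and 292 TPM in WT males, 288, 306 and 307 in KO males, 270.4, 258 and 263 in WT females and 306, 303 and 312 in KO females. Only the female libraries separated (males log2 fold change 0.077, SE 0.061, adjusted p = 0.412, females log2 fold change 0.22, SE 0.029, adjusted p = 0.00626). The beta chains Lamb1 and Lamb2 passed in neither sex, with log2 fold changes from 0.017 to 0.15.

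Of the 3 mesothelial markers tested, Krt19 and Msln fell in KO of both sexes. The basement membrane genes that passed were 1 higher and 5 lower in male KO, and 3 higher and 1 lower in female KO. The 5 mesothelial markers summed to 96 to 102 TPM in male WT, 11.8 to 14.9 in male KO, 30.5 to 31 in female WT and 11.4 to 14.7 in female KO, and 2 of them had a mean under 1 TPM. Krt19 was 67.2, 68.1 and 66.4 TPM in WT males, 7.3, 8.17 and 6.94 in KO males, 13.4, 16 and 15 in WT females and 5.15, 5.82 and 8.35 in KO females. Msln was 25.4, 31.7 and 28.9 TPM in WT males, 1.81, 1.03 and 1.07 in KO males, 13.5, 11.6 and 12.8 in WT females and 5.91, 5.26 and 5.73 in KO females. The third marker tested, Wt1, rose in male KO by 1.25 and fell in female KO by 1.55 on the log2 scale. The part of mesothelial marker expression in the basement membrane values was not tested. The 6 epithelial markers summed to 1.92 to 2.95 TPM in male WT, 0.310 to 0.668 in male KO, 2.28 to 3.29 in female WT and 0.684 to 1.28 in female KO, with 5 of 6 under a mean of 1 TPM.

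**Figure D3:**
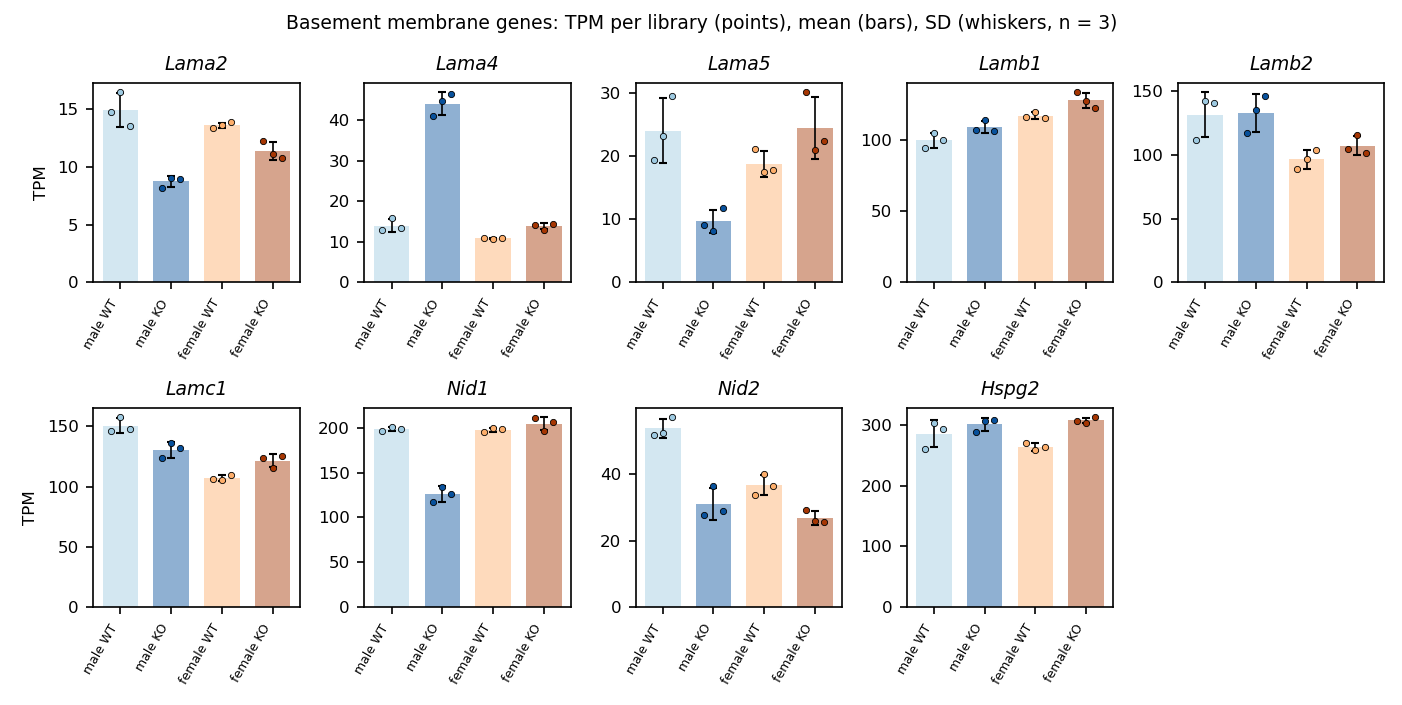
TPM (y axes, each starting at 0) of the 9 basement membrane genes in each library (points), with group means (bars) and SD (whiskers, n = 3). Lama4 is high in male KO alone (41 to 46.4 TPM), Lama5 and Nid1 are low in male KO alone (8.15 to 11.7 and 117 to 134 TPM), and Hspg2 and the beta chains differ little.

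Both large chondroitin sulfate proteoglycans rose in both sexes. Acan encodes aggrecan, the water-holding proteoglycan of cartilage (ENSMUSG00000030607.7, chr7:79053483-79115099, + strand), and was at 3.95, 5.36 and 5.33 TPM in WT males, 14.4, 18.5 and 14.6 in KO males, 2.76, 2.12 and 2.09 in WT females and 12, 10.6 and 10.5 in KO females. All KO libraries were above 10 TPM and all WT libraries under 6 (males log2 fold change 1.52, SE 0.15, adjusted p = 0.000573, females log2 fold change 1.86, SE 0.13, adjusted p = 0.000359). Vcan, versican, the large proteoglycan of soft connective tissue and the more abundant of the pair, was at 31.7, 35.1 and 35.4 TPM in WT males, 50.3, 56.6 and 53.5 in KO males, 37, 36.3 and 38.8 in WT females and 47.4, 49 and 47.9 in KO females. Its KO libraries exceeded WT without overlap (males log2 fold change 0.64, SE 0.070, adjusted p = 0.00105, females log2 fold change 0.36, SE 0.047, adjusted p = 0.00556). The 8 chondrocyte markers, which do not include Acan, summed to 13.8 to 19.3 TPM in male WT, 35.4 to 43.1 in male KO, 20.6 to 27.1 in female WT and 38.2 to 39 in female KO. 5 of the 8 had a mean under 1 TPM, and of the 3 tested, 2 rose in males and 1 in females. The log2 fold changes of the 3 tested ran from -0.30 to 3.00 in males (median 0.70) and from -0.056 to 1.26 in females (median 0.34). Col2a1, the collagen of cartilage, had the highest in both sexes and was named after its values were seen. It rose by 3.00 in males (adjusted p = 1.33e-05) and 1.26 in females (adjusted p = 0.00387). The part of chondrocyte-like expression in the Acan values was not tested.

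No small leucine-rich proteoglycan fell in KO MEFs. These proteins bind collagen fibrils and set their diameter and spacing. Of the 6 tested, 5 rose in each sex: all but Dcn in males and all but Podn in females. Over all tested genes, 10.7% rose in males and 5.63% in females. Bgn, biglycan, the X-linked gene with the highest level of all 53 (ENSMUSG00000031375.17, chrX:73483602-73495933, + strand), was at 1236, 1265 and 1316 TPM in WT males, 1819, 1978 and 1859 in KO males, 1476, 1634 and 1524 in WT females and 1798, 1859.6 and 1857 in KO females. Every KO library exceeded every WT library of its sex (males log2 fold change 0.57, SE 0.041, adjusted p = 0.000147, females log2 fold change 0.25, SE 0.040, adjusted p = 0.0111). In females the call was lost with no filter on low values and with no mean-variance trend. Over 12 alternatives the log2 fold change was 0.22 to 0.29 and the adjusted p at most 0.0528. Dcn, decorin, the close relative of biglycan (ENSMUSG00000019929.16, chr10:97479609-97518143, + strand), was far less abundant at 6.11, 9.37 and 8.87 TPM in WT males, 13.1, 10.8 and 10.9 in KO males, 6.94, 8.45 and 5.6 in WT females and 15.9, 15.1 and 17.3 in KO females. The KO libraries lay above the WT ones in both sexes, and the difference passed in females (log2 fold change 1.11, SE 0.14, adjusted p = 0.00497) but not in males (log2 fold change 0.48, SE 0.16, adjusted p = 0.0842), where WT spread from 6.11 to 9.37 TPM.

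Fmod, fibromodulin, which binds type I collagen and limits fibril growth (ENSMUSG00000041559.7, chr1:134037254-134048277, + strand), was at 3.56, 3.34 and 3.05 TPM in WT males, 18.8, 20.9 and 21.7 in KO males, 4.62, 5.71 and 5.29 in WT females and 7.71, 7.8 and 7.75 in KO females. It rose steeply in males (log2 fold change 2.31, SE 0.10, adjusted p = 1.79e-05) and modestly in females (log2 fold change 0.50, SE 0.11, adjusted p = 0.0284). The female call was lost without female WT replicate 1 or 3 or female KO replicate 1, 2 or 3 and with no filter on low values. The adjusted p reached 0.0839 over the 12 alternatives, with log2 fold changes of 0.43 to 0.57. Ogn, osteoglycin (ENSMUSG00000021390.6, chr13:49608046-49624501, + strand), was at 40.5, 41.8 and 38.5 TPM in WT males, 113, 123 and 126 in KO males, 8.08, 8.96 and 8.3 in WT females and 20.7, 20.1 and 25.3 in KO females. KO libraries were higher in both sexes (males log2 fold change 1.56, SE 0.059, adjusted p = 1.16e-05, females log2 fold change 1.28, SE 0.11, adjusted p = 0.000812), and the male libraries of either genotype were above all female ones. Aspn, asporin, which binds collagen and TGF-beta (ENSMUSG00000021388.14, chr13:49544443-49567565, + strand), was at 21.2, 19.5 and 19.8 TPM in WT males, 23.7, 25.5 and 25.1 in KO males, 5.19, 4.74 and 4.34 in WT females and 29.3, 28.9 and 31.7 in KO females. Here female WT was the group apart: its libraries lay at 4.34 to 5.19 TPM and all others at 19.5 to 31.7, so that the female rise was large (log2 fold change 2.43, SE 0.088, adjusted p = 3.94e-05) and the male one small (log2 fold change 0.29, SE 0.068, adjusted p = 0.0251). The male call for Aspn was lost without male WT replicate 2 or 3 or male KO replicate 2 or 3. Across the 12 alternatives, log2 values were 0.26 to 0.32 and the adjusted p rose to 0.0849. Podn, podocan (ENSMUSG00000028600.15, chr4:108014791-108096445, - strand), was at 1.88, 3.3 and 3.79 TPM in WT males, 8.02, 8.13 and 8.06 in KO males, 1.94, 1.32 and 1.91 in WT females and 2.31, 2.67 and 2.7 in KO females. It passed in males (log2 fold change 1.22, SE 0.20, adjusted p = 0.00581), and its female libraries did not overlap but did not pass (log2 fold change 0.39, SE 0.16, adjusted p = 0.168).

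Several of these genes are neighbours. Aspn and Ogn lie on chromosome 13 on the same strand with a gap of 40.5 kb, and Omd, a further member of the family that is not on the list, lies between them. Omd was 0.351, 1.1 and 0.383 TPM in WT males, 2.08, 3.15 and 2.37 in KO males, 0.497, 0.0794 and 0.218 in WT females and 1.07, 0.357 and 0.733 in KO females. It reached the filter of 1 TPM through the male KO libraries alone (mean of the other groups 0.531 TPM), so its values are given with no test, and it was named after they were seen. Dcn lies 47 kb from Lum on chromosome 10, and Lum stayed at or under 0.489 TPM in all libraries. Fmod lies 116 kb from Prelp on chromosome 1, and Prelp stayed at or under 0.734 TPM in all libraries. Adjacent genes in these clusters thus stood at very different levels on the TPM scale.

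Of the 3 hyaluronan genes, Has2 fell in female KO and none passed in males. Cd44, the hyaluronan receptor and the most abundant of the 3, was at 140.1, 135 and 145 TPM in WT males, 132, 146 and 144 in KO males, 184, 190.2 and 188 in WT females and 199, 192 and 199 in KO females. Its KO and WT libraries overlapped in males and barely separated in females (males log2 fold change 0.0074, SE 0.052, adjusted p = 0.94, females log2 fold change 0.069, SE 0.031, adjusted p = 0.211). Has2, the main fibroblast hyaluronan synthase, was at 41.4, 40.7 and 42 TPM in WT males, 35.1, 38.4 and 34.8 in KO males, 92.5, 88.2 and 91.4 in WT females and 69.7, 70 and 69.2 in KO females. KO was below WT without overlap in both sexes, and the difference passed in females (log2 fold change -0.38, SE 0.036, adjusted p = 0.00148) and not in males (log2 fold change -0.19, SE 0.059, adjusted p = 0.0589). Has1 was at 0.795, 1.02 and 0.975 TPM in WT males, 0.704, 0.651 and 0.919 in KO males, 2.06, 2.13 and 1.89 in WT females and 3.27, 3.32 and 1.96 in KO females, with overlapping KO and WT libraries in both sexes.

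The syndecans and glypicans are heparan sulfate proteoglycans of the cell surface, the former anchored by a transmembrane helix and the latter by a lipid, and both act as co-receptors for growth factors. Sdc1, which is best known from epithelia and plasma cells, rose in both sexes (males log2 fold change 0.30, SE 0.048, adjusted p = 0.00569, females log2 fold change 0.36, SE 0.031, adjusted p = 0.000972). Sdc2, the mesenchymal syndecan, rose in male KO alone, from 61.6, 62.4 and 60.6 to 81, 85.4 and 85.9 TPM (log2 fold change 0.44, SE 0.045, adjusted p = 0.000691), against 51.8, 54.6 and 56.4 and 54.5, 54 and 56.4 in females. Sdc4, a focal adhesion syndecan and the most abundant of the 3, was at 221, 245 and 229 TPM in WT males, 197, 232 and 231 in KO males, 136, 145 and 138 in WT females and 127, 139 and 138 in KO females. It overlapped between KO and WT in both sexes (males log2 fold change -0.077, SE 0.074, adjusted p = 0.506, females log2 fold change -0.054, SE 0.047, adjusted p = 0.509).

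Gpc1, a widely expressed glypican, was at 169, 170.0 and 174 TPM in WT males, 138, 141 and 134 in KO males, 75.9, 74.6 and 74 in WT females and 85.4, 76.2 and 78.2 in KO females. Male KO was lower than male WT (log2 fold change -0.31, SE 0.038, adjusted p = 0.00185), and the female difference did not pass (log2 fold change 0.093, SE 0.050, adjusted p = 0.293). Gpc3, the X-linked glypican that restrains embryonic growth (ENSMUSG00000055653.13, chrX:52272426-52613950, - strand), was at 25.6, 24.7 and 24.6 TPM in WT males, 52.8, 52.5 and 52.8 in KO males, 12.6, 12.4 and 10.6 in WT females and 13.4, 13.1 and 13.2 in KO females. It rose in male KO without overlap and with little spread (log2 fold change 1.05, SE 0.050, adjusted p = 2.65e-05), while the female libraries differed by less (log2 fold change 0.14, SE 0.088, adjusted p = 0.346). Its neighbour Gpc4, 107 kb away on the X chromosome, rose in females instead, from 35.3, 34.5 and 37.7 to 56.6, 56.7 and 60.9 TPM (log2 fold change 0.68, SE 0.055, adjusted p = 0.00077), with 47.8, 49.6 and 47.1 and 49, 53.5 and 55.1 TPM in males (log2 fold change 0.12, SE 0.060, adjusted p = 0.202). Gpc6 passed in neither sex (0.0040 and -0.052).

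**Figure D4:**
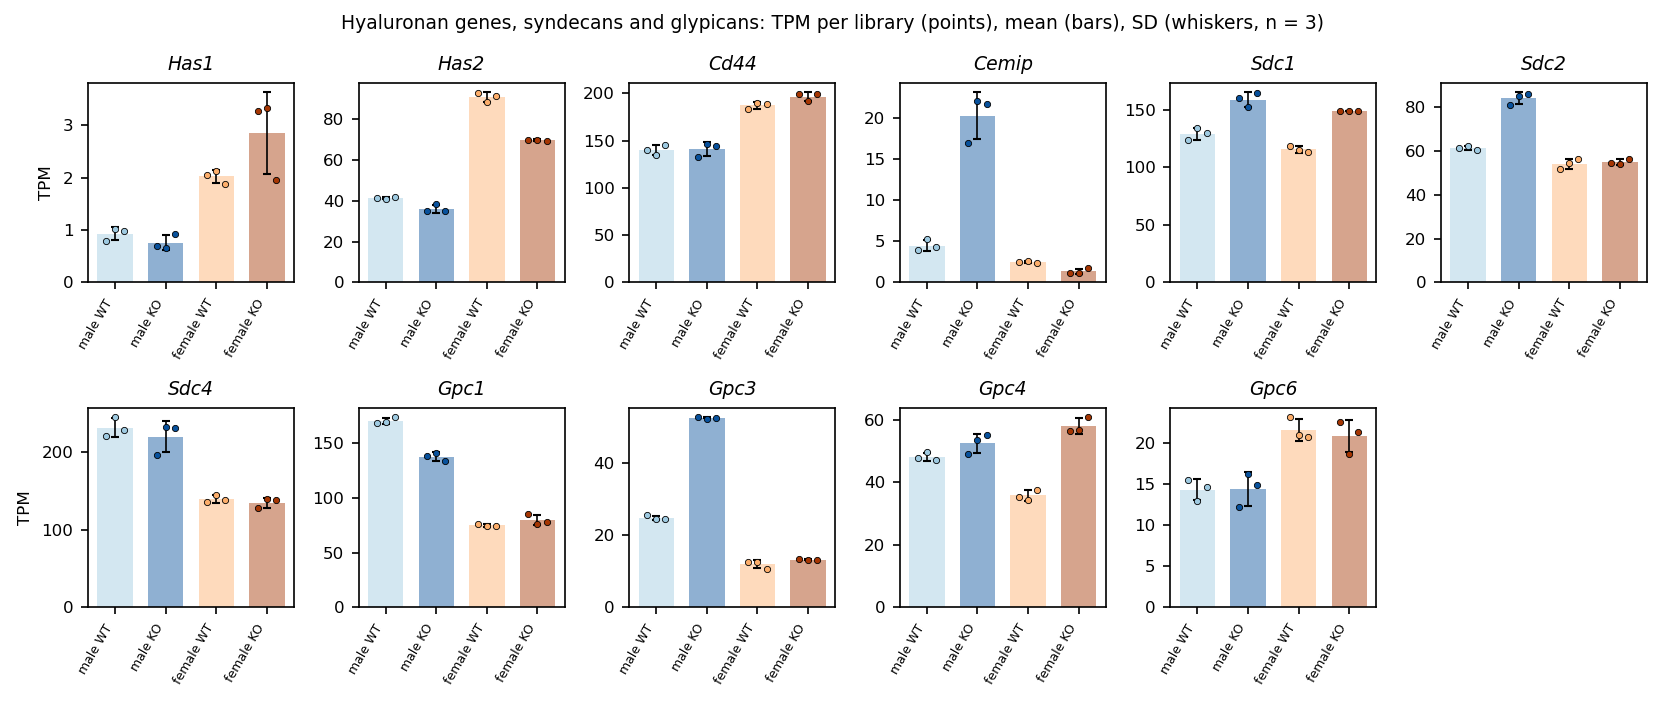
TPM (y axes, each starting at 0) of the hyaluronan genes, the hyaluronan-degrading gene Cemip, the syndecans and the glypicans in each library (points), with group means (bars) and SD (whiskers, n = 3). Has2 stands at 34.8 to 42 TPM in male and 69.2 to 92.5 TPM in female libraries, and Gpc3 at 52.5 to 52.8 TPM in male KO against 10.6 to 25.6 TPM elsewhere.

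Whether the KO difference itself differed between the sexes was tested by the interaction over all 12 libraries. It passed for 27 of the 50 genes, 15 with the larger signed log2 fold change in males and 12 in females. Over all tested genes 13.0% passed, 6.70% and 6.33% in the respective direction. Of the 11 genes called in males alone 9 passed, of the 6 called in females alone 2 passed (Gpc4 and Mfap4), and of the 23 called in both 16 passed. The excess in males was largest for Tgfbi (log2 fold change 1.88, SE 0.12, adjusted p = 1.41e-06), Fmod (log2 fold change 1.81, SE 0.14, adjusted p = 5.58e-06), Lama4 (log2 fold change 1.27, SE 0.12, adjusted p = 2.55e-05) and Spp1 (log2 fold change 1.01, SE 0.056, adjusted p = 5.95e-07). The excess in females was largest for Aspn (log2 fold change -2.14, SE 0.10, adjusted p = 2.43e-07), Lama5 (log2 fold change -1.57, SE 0.25, adjusted p = 0.00135), Mfap5 (log2 fold change -1.21, SE 0.15, adjusted p = 0.000205) and Emilin2 (log2 fold change -1.09, SE 0.092, adjusted p = 1.38e-05). For Lama5, Mfap5 and Emilin2 this stood on a fall in males and on female differences that did not pass. The genes with a large rise in both sexes did not pass: the interaction was 0.039 for Postn, -0.34 for Acan (adjusted p = 0.316), -0.31 for Eln (adjusted p = 0.239) and 0.28 for Ogn (adjusted p = 0.165).

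Smaller interactions rested on less. That of Sparc (log2 fold change 0.15, SE 0.039, adjusted p = 0.0296) was lost without male WT replicate 1 or 3 or male KO replicate 1, 2 or 3 or female WT replicate 2 or 3 or female KO replicate 1 or 2, with no filter on low values, with median-of-ratios scaling and with no mean-variance trend. Adjusted p values went up to 0.144 and log2 fold changes from 0.13 to 0.17 over the 17 alternatives. That of Vcan (log2 fold change 0.28, SE 0.083, adjusted p = 0.0468) was lost without male WT replicate 1, 2 or 3 or male KO replicate 2 or 3 or female WT replicate 1, 2 or 3 or female KO replicate 1, 2 or 3, with no filter on low values and with no mean-variance trend. Its log2 fold change ran from 0.23 to 0.32 over the 17 alternatives, with adjusted p up to 0.107. For Fbln2 (log2 fold change -0.19, SE 0.048, adjusted p = 0.0237) the call was lost without male WT replicate 2 or 3 or male KO replicate 1 or 3 or female WT replicate 1 or 3 or female KO replicate 2 or 3 and with no mean-variance trend. Over 17 alternatives the log2 fold change was -0.23 to -0.16 and the adjusted p at most 0.0941. For Lama2 (log2 fold change -0.47, SE 0.12, adjusted p = 0.0251) it was lost without male WT replicate 2 or male KO replicate 1 or female WT replicate 1 or 2 or female KO replicate 1. The adjusted p reached 0.063 over the 17 alternatives, with log2 fold changes of -0.53 to -0.40. Podn and Dcn, which passed in one sex each, had interactions of 0.82 (adjusted p = 0.0583) and -0.63 (adjusted p = 0.102), so a difference between the sexes was not shown for either.

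**Figure D5:**
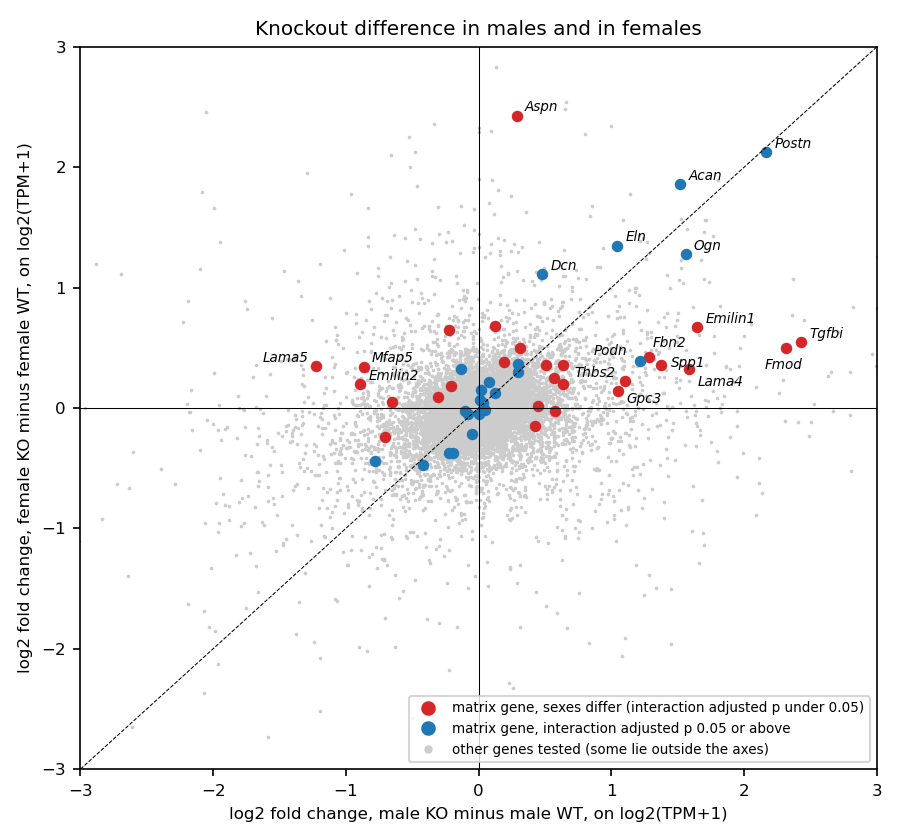
Log2 fold change of KO over WT in males (x axis) against females (y axis), both on log2(TPM + 1), for the 50 matrix genes (coloured) and all other tested genes (grey). The dashed line marks equal change, and red points passed the interaction test (27 genes). Postn lies near the line (2.17 and 2.13), Tgfbi and Fmod lie far below it, and Aspn far above it.

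The sexes were also compared within each genotype. These comparisons reuse the libraries of the KO comparisons, so the values stand side by side only. Between WT MEFs, 30 of the 50 genes passed, 15 higher in males and 15 in females, where 12.8% of all tested genes passed, 6.26% higher and 6.56% lower in males. Between KO MEFs, 34 passed, 15 higher and 19 lower in males, where 16.6% of all tested genes passed, 8.17% higher and 8.39% lower. Both counts of genes lower in males include Has1. The TPM ranges of the sexes did not overlap for 39 genes in WT and 41 in KO, against 33.4% and 35.4% of all tested genes.

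Has2 and Cd44 were lower in male than in female MEFs of both genotypes. Has2 differed by -1.11 in WT (adjusted p = 1.6e-05) and -0.93 in KO (adjusted p = 6.61e-05), and Cd44 by -0.42 (adjusted p = 0.000809) and -0.48 (adjusted p = 0.000724). Has1, which passed the filter through the female libraries, is given as a value only, -0.65 in WT and -1.11 in KO, or -1.05 and -1.76 with a pseudocount of 0.1 TPM. Tnc was likewise lower in males in both genotypes (-0.83 and -0.78, adjusted p = 0.000141 and 7.23e-05), and so was Thbs2 (-1.35 and -0.47, adjusted p = 3.01e-05 and 0.00135).

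Ogn, Gpc3, Gpc1 and Sdc4 were higher in males in both genotypes. Ogn differed by 2.13 in WT (adjusted p = 1.14e-05) and 2.41 in KO (adjusted p = 1.03e-05), and Gpc3 by 1.01 (adjusted p = 0.000498) and 1.92 (adjusted p = 3.4e-06). Gpc1 differed by 1.18 and 0.78, and Sdc4 by 0.72 and 0.70. Whether a difference was unequal between the genotypes is what the interaction tests. It passed for Gpc3 (0.91, adjusted p = 4.93e-05), Gpc1 (-0.40, adjusted p = 0.00113) and Thbs2 (0.88, adjusted p = 2.01e-05), whose differences kept their direction. Among other genes it passed for Tgfbi, Spp1, Lama4, Lama5, Mfap4 and Aspn. Tgfbi differed by 0.69 in WT (adjusted p = 0.00473) and by 2.57 in KO (adjusted p = 1.975e-06). Spp1 differed by -1.16 in WT (adjusted p = 1.6e-05) and by -0.14 in KO (adjusted p = 0.0433). The KO call for Spp1 was lost without male KO replicate 1, 2 or 3 or female KO replicate 1 or 2, with no filter on low values, with median-of-ratios scaling and with no mean-variance trend. Across the 12 alternatives, log2 values were -0.17 to -0.11 and the adjusted p rose to 0.151. Lama4 passed in KO (log2 fold change 1.60, SE 0.074, adjusted p = 2.25e-05) and not in WT (log2 fold change 0.33, SE 0.096, adjusted p = 0.0678), and Lama5 was lower in male KO (log2 fold change -1.25, SE 0.17, adjusted p = 0.00347) with no passing difference in WT (log2 fold change 0.32, SE 0.15, adjusted p = 0.231). Mfap4 was lower in male KO (log2 fold change -1.08, SE 0.091, adjusted p = 0.000334), against -0.21 and an adjusted p of 0.273 in WT. Aspn turned over, higher in males in WT (log2 fold change 1.88, SE 0.092, adjusted p = 4.84e-05) and lower in KO (log2 fold change -0.26, SE 0.066, adjusted p = 0.036). That KO call was lost without any 1 of the 6 libraries. Adjusted p values went up to 0.11 and log2 fold changes from -0.29 to -0.23 over the 12 alternatives.

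Other matrix glycoproteins and proteoglycans, outside the list, both rose and fell. Of 75 such genes found, 39 passed the filter, 4 of them (Fbln7, Mmrn2, Omd and Vwa1) only through the group, sex or genotype in which they were high. The counts below run over all 39. Any calls of these 4, which the filter favoured, are therefore in them. In males 23 passed the test, 17 higher and 6 lower in KO, and in females 16, 9 higher and 7 lower, where 21.6% and 11.5% of all tested genes passed. The largest changes in males were in Smoc1, a calcium-binding basement membrane glycoprotein (0.649, 0.415 and 0.801 TPM in WT and 15.2, 18.6 and 17.6 in KO, log2 3.49), Svep1, a large cell adhesion protein (1.96), and Mgp, the matrix Gla protein that inhibits calcification (-1.65). In females they were in Ccn5, a matricellular growth regulator (16.9, 15.3 and 15.1 TPM in WT and 97, 90 and 103 in KO, log2 2.54), Smoc1 (1.89) and Smoc2 (-0.72). The interaction passed for 19 (against 13.0% of all tested genes), led by Ccn5 (-1.88), Svep1 (1.61) and Smoc1 (1.60). Between the sexes 20 passed in WT, 11 higher and 9 lower in males, and 26 in KO, 18 higher and 8 lower (against 12.8% and 16.6% of all tested genes), with Thbs4 (2.35 in WT and 3.57 in KO), Ccn5 (3.46 and 1.59) and Abi3bp (1.78 and 2.32) farthest apart.

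The chains themselves depend on enzymes that make, sulfate or remodel glycosaminoglycans. Of 49 such genes tested, 17 passed in males, 12 higher and 5 lower in KO, and 5 in females, 4 higher and 1 lower, with 15 passing the interaction. These were 34.7%, 10.2% and 30.6% of the list, where 21.6%, 11.5% and 13.0% of all tested genes passed, so the female share was that of all genes or below it. Of the 49, 6 passed the filter only through the group, sex or genotype in which they were high, Hs3st1 and Hs3st3a1 among them. Any calls of these 6, which the filter favoured, are in the counts, also in those between the sexes. Hs3st1, which adds a rare heparan 3-O-sulfate, was at 3.87, 4.38 and 5.09 TPM in male WT and 0.349, 0.242 and 0.348 in male KO (log2 -2.05, or -3.46 with a pseudocount of 0.1 TPM). Cemip, which takes part in hyaluronan breakdown, rose in male KO from 3.95, 5.23 and 4.29 to 17, 22.1 and 21.7 TPM (1.95, adjusted p = 0.000145) and was at 2.48, 2.65 and 2.36 and 1.19, 1.18 and 1.71 TPM in female WT and KO (-0.57, adjusted p = 0.0628). Csgalnact1, which starts chondroitin chains, rose in males by 1.44. The extracellular heparan sulfatases moved apart in both sexes: Sulf1 fell (log2 -1.29 in males and -0.66 in females) and Sulf2 rose (1.07 and 0.52). Chst14, a dermatan sulfotransferase, rose in females by 0.30 (adjusted p = 0.0182), a call lost when female WT replicate 2 or 3 or female KO replicate 1 or 2 was left out (0.28 to 0.31, adjusted p up to 0.0648).

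Between the sexes, 11 of these enzymes passed in WT, 7 higher and 4 lower in males, and 17 in KO, 9 higher and 8 lower, which was 22.4% and 34.7% of the list against 12.8% and 16.6% of all tested genes. Chst7 (1.31), Hs3st1 (1.29) and Hs3st3a1 (-1.01) were farthest apart in WT, and Cemip (3.17), Sulf2 (1.17) and Chsy3 (0.97) in KO. The Hs3st3a1 value moved to -1.88 with a pseudocount of 0.1 TPM. Chsy3 in KO had an adjusted p of 0.0524 without male KO replicate 3 (0.92).

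The remaining marker lists were at low levels. Haematopoietic markers summed to 4.19 to 11.4 TPM, neural and glial markers to 10.7 to 18.6 and osteoblast markers to 28.7 to 46.4 over the 12 libraries, with 4 of 5 in each list under a mean of 1 TPM. Endothelial and skeletal muscle markers, also with 4 of 5 under that mean, were highest in female WT. The endothelial ones summed to 4.71 to 5.95 TPM there and to at most 2.25 in the other groups, and Kdr, the VEGF receptor gene and the one tested, fell in female KO by 1.06 on the log2 scale (adjusted p = 0.00368) and was named after its values were seen. The skeletal muscle ones summed to 5.74 to 6.64 TPM in female WT and to at most 0.362 in the other groups. Their part in the female matrix values was not tested. Adgre1, Ibsp and Myf5 were listed at 0 in all libraries. 6 matrix genes share exon bases with an expressed gene on the opposite strand, and strandedness was not given in the sources used here, so reads there cannot be told apart: Fbn1 with Gm9913 (20.14% of its exon bases), Nid2 with Rtraf (8.45%), Thbs3 with Mtx1 (6.59%), Mfap4 with Mapk7 (4.63%), Efemp2 with Mus81 (4.57%) and Aspn with Cenpp (0.3%).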

How the data were processed

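Polyadenylated RNA of 12 MEF cultures was sequenced, 3 for each combination of sex and genotype. The authors quantified reads with Salmon (version 1.10.1 per the submitters' processing notes) against GRCm38 and deposited 1 matrix of TPM values, not counts, for 34866 genes, of which 12465 were at 0 in all libraries. No read depth is given with the values. Whether counting used strand was not given in the sources used here. Ensembl identifiers were matched to GENCODE M21 symbols (99.4% matched).

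The 12504 genes whose mean over the 12 libraries reached 1 TPM were tested as log2(TPM + 1) with limma 3.58.1 in R 4.3.3, with a mean-variance trend and no fold threshold. Each pairwise fit used the 6 libraries compared, and the interaction used all 12. Fold changes on this scale understate those of genes with low levels. Adjusted p-values are Benjamini-Hochberg values over all tested genes, two-sided, called under 0.05. The authors' own test was DESeq2 on the TPM matrix, which needs counts and was not run here. On simulated data with 200 genes changed by a log2 fold of 1, the fits found 84%, 88% and 89% of them in the male, female and interaction tests, and 7.69%, 6.38% and 3.26% of their calls were false. The changed genes were drawn from the better expressed ones, all others were unchanged, and the noise was normal and independent. Such rates need not hold for genes of low level or for the real calls.

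The members and lists were chosen with earlier results of these data known, so counts over them are descriptions. Values are given for every library for genes with a log2 fold change of at least 1 that passed the male, female or interaction test (18) and for the gene of highest mean TPM in each of the 9 roles (27 genes in all). Of the other lists, up to 3 genes of largest change per test are named. Promoter windows are from RefSeq (GRCm38.p6). Protein sequences were not used here. Alternatives were other pseudocounts, filters, scalings and fits, and each library left out.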

Additional observations from a re-analysis of the deposited data

Results flagged for a closer look

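The results in this section are those in which the KO difference of males and females differed by the limma interaction test over 12 libraries. Each value is the male log2 fold change minus the female one, on log2(TPM + 1), and no explanation was tested. Larger refers to the signed value, so a gene that fell further in males is listed as larger in females.

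Among the genes of the list, the male log2 fold change was the larger for Tgfbi (1.88), Fmod (1.81), Lama4 (1.27), Spp1 (1.01), Emilin1 (0.97), Gpc3 (0.91), Thbs2 (0.88), Fbn2 (0.86), Fbn1 (0.60), Thbs1 (0.57), Efemp2 (0.44), Sdc2 (0.42), Bgn (0.31), Vcan (0.28) and Sparc (0.15). The female log2 fold change was the larger for Aspn (-2.14), Lama5 (-1.57), Mfap5 (-1.21), Emilin2 (-1.09), Mfap4 (-0.87), Nid1 (-0.70), Gpc4 (-0.56), Lama2 (-0.47), Gpc1 (-0.40), Lamc1 (-0.39), Fbln2 (-0.19) and Fbln5 (-0.19).

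Of the other genes named, Cemip (2.52), Col2a1 (1.74), Svep1 (1.61), Smoc1 (1.60), Chsy3 (1.46), Thbs4 (1.23), Csgalnact1 (0.94), Kdr (0.93), Sulf2 (0.55) and Abi3bp (0.54) had the larger value in males. Msln (-2.66), Hs3st1 (-1.95), Krt19 (-1.91), Ccn5 (-1.88), Mgp (-1.04), Chst7 (-1.02) and Sulf1 (-0.63) had the larger value in females. Hs3st1 passed the filter on low values only through male WT. The values for Hs3st1 and Chsy3 moved to -3.25 and 2.29 with a pseudocount of 0.1 TPM. The Abi3bp call was lost under most alternatives (adjusted p up to 0.237), and that of Csgalnact1 without male WT replicate 1 or female WT replicate 1 (0.86 and 0.88).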

How the results depend on the processing

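No called value of a matrix gene changed sign under any alternative run: 154 of 250 values (gene and comparison) were called, and the 57 sign changes concerned 21 uncalled values with an absolute log2 fold change of at most 0.077. Calls held under every alternative for 30 of 34 genes in males, 20 of 29 in females, 23 of 30 between WT sexes, 24 of 34 between KO sexes and 23 of 27 in the interaction. Counts over all genes were less stable. Leaving out 1 library gave 774 to 835 called genes in females (1434 with all libraries), 1037 to 1243 between WT sexes (1603) and 1328 to 1824 between KO sexes (2070). The number of matrix genes lower in female KO was 5, but 3 with no filter on low values, 3 with the replicate block and 3 to 4 with 1 library left out. The causes were not tested.

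Replicate numbers did not pair the libraries, since correlations of same-numbered deviations from the group means ranged from -0.0571 to 0.0779 over the pairs. With the replicate number as a block, 670 genes were called in females, and the matrix genes lost 8 calls in females, 8 between KO sexes, 4 between WT sexes, 2 in males and 0 in the interaction, and gained none. Each of these calls was also lost under another alternative. The depth reached is not given with the TPM, so genes near 1 TPM such as Has1 carry an unknown counting error.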

Other observations

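Summed by role, TPM give the make-up of the transcript pool, as values with no test (mean ± SD, n = 3). The matricellular genes held the largest sum in every group, 2024 ± 63.9 TPM in male WT, 2801 ± 63.7 in male KO, 2582 ± 27.5 in female WT and 2685 ± 21 in female KO. Elastic fibre genes followed with 1678 ± 60.8, 2176 ± 63.4, 1962 ± 6.58 and 2422 ± 9.65 TPM in the same order. The small leucine-rich proteoglycans summed to 1348 ± 40.4, 2072 ± 87.2, 1572 ± 82.2 and 1918 ± 37 TPM, most of it Bgn. The basement membrane genes had a lower sum in male KO than in male WT, 972 ± 57 and 892 ± 46.2 TPM, against 862 ± 7.31 and 945 ± 17.4 in female WT and KO. The large chondroitin sulfate proteoglycans, at 38.9 ± 2.87 and 69.3 ± 5.29 TPM in male WT and KO and 39.7 ± 1.26 and 59.1 ± 0.628 in female WT and KO, made up the smallest sum.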
